A study of Mus musculus with 6 samples.

Results

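Imprinted genes are genes of which the copy from a single parent is transcribed in many tissues, while the other copy is kept silent. A set of 34 mouse genes known for this was followed by symbol in a table of 25239 genes, and all 34 were in it. They were split by the allele that is active in most mouse tissues into 19 paternally expressed and 14 maternally expressed genes. Gnas, which makes maternal, paternal and biallelic transcripts, was put in neither class. The classes come from general knowledge of the mouse, since counts per gene do not show which allele a read came from. RNA was sequenced from ovaries of fetal C57BL/6 mice, at the late stage that the titles write as E18_5, in 3 libraries labelled WT and 3 labelled Hnrnpl-null (null ovaries below). Hnrnpl encodes an RNA-binding protein that regulates splicing, and by its title the series concerns how the reserve of primordial follicles forms. Titles of the Hnrnpl-null libraries carry the abbreviation CKO and the name of the deposited table carries the word stra8, a gene that germ cells switch on at meiotic entry. Neither is explained in the labels, which give no Cre driver, no deleted exons and no count of animals per library.

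Parental imprints are marks of DNA methylation at CpG sites, set separately in the germ lines of both parents and carried through the body's cells. Germ cells erase them in the fetus, and oocytes set their own while they grow after birth. The fetal ovary is therefore a mix of germ cells without imprints and somatic cells with them. Many imprinted genes lie in domains where a long noncoding RNA made from a single parental copy silences neighbours, and many control fetal growth. In these bulk samples fewer cells of a type and less RNA per cell cannot be told apart.

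Total counts were 8949781 to 22401419 per library, and low counts were mostly even (93.4% to 98.4% of counts from 1 to 20), as when both mates of a pair are counted. A pair of libraries was rich in the ribosomal RNA precursor Rn45s, WT replicate 1 with 82.9% and Hnrnpl-null replicate 3 with 86.1% of all counts. It made up 18.6% to 36.0% elsewhere, and 1757572 to 10980179 counts per library were left for other genes. Hnrnpl-null replicate 3 is the shallowest, and 6 counts in it, worth 3 read pairs, equal 1.88 CPM (counts scaled to a common library size). Oocyte is the cell type in the labels, but markers of ovarian somatic cells were abundant. Stromal markers (8 genes) summed to 6040 to 6565 CPM in WT, against 559.0 to 629 CPM for 12 germ cell markers. Most of the stromal sum is collagen, with Col1a1, Col3a1 and Col1a2 at 2792, 1972 and 1230 CPM on average in WT. The other stromal markers averaged 31.7 (Lum) to 146 CPM (Pdgfra), and such sums do not give shares of cells. Hnrnpl itself averaged 162 ± 14.8 CPM in WT against 184 ± 25.5 CPM in null ovaries (SD, n = 3 each) and was not called, so its count does not check the labels. Replicates are not stated to come from separate animals, so the p-values reflect only how these libraries differ among themselves, which may be technical.

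Most imprinted genes were not called between the groups. Of the 34, 31 passed the filter on low counts and were tested with edgeR across all 14849 genes that passed. Kcnq1 and Kcnq1ot1, both of the Kcnq1 domain, fell and Grb10 rose at a Benjamini-Hochberg adjusted p below 0.05, while 28 were not called. Of all tested genes, 4.46% were called, 2.67% higher and 1.79% lower. An unadjusted p below 0.05 was reached by 11 of the 31 members, 7 higher and 4 lower, beside 9.97% and 8.53% of all genes. In 7 members every Hnrnpl-null library lay above every WT library, and in 6 every one lay below, beside 12.4% and 13.2% of all genes (25.6% together). The 95% interval of the ratio of Hnrnpl-null to WT lay within a 2-fold change in either direction for 25 of the 31 and within 1.5-fold for 16. Those that reached past 2-fold were Kcnq1, Kcnq1ot1, Airn, Peg12, Asb4 and Slc22a18. The median absolute log2 fold change was 0.24 over the members and 0.26 over all tested genes.

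**Figure D1:**
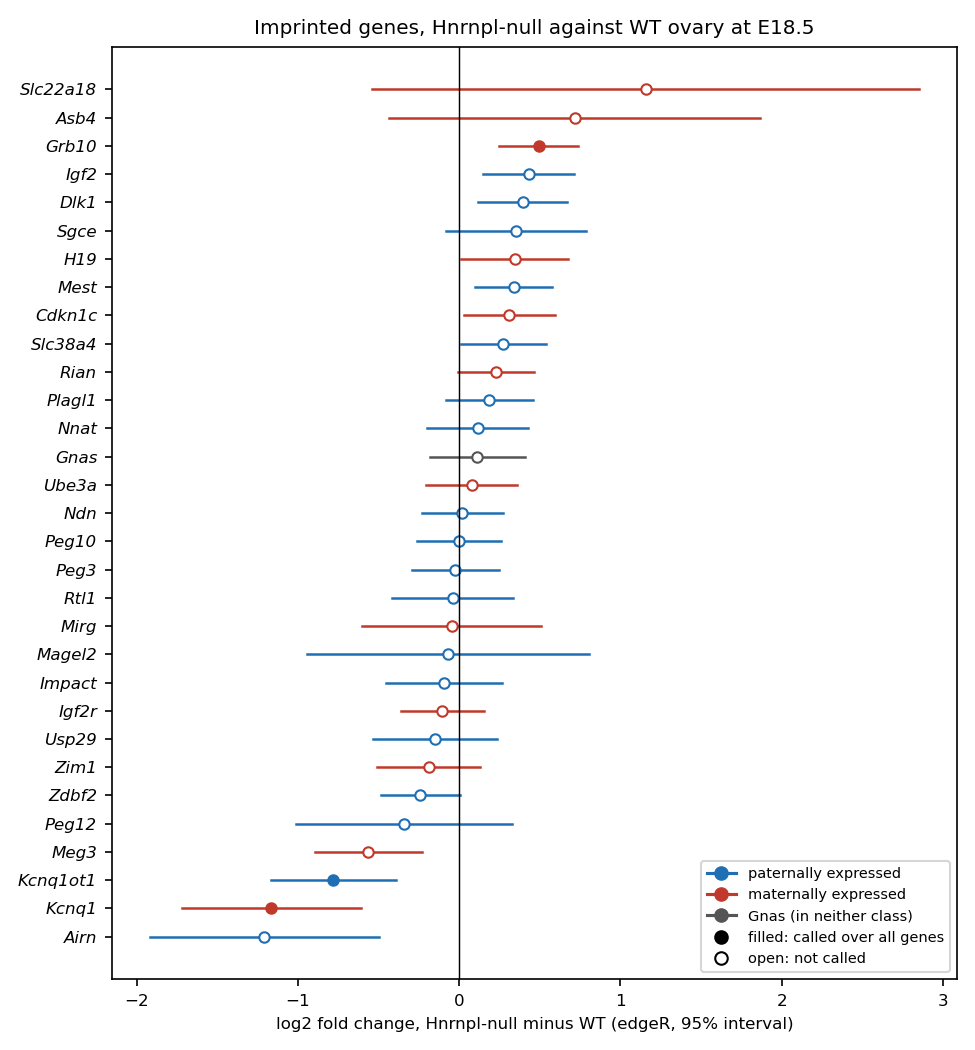
Log2 fold change of each of the 31 tested imprinted genes (x axis, Hnrnpl-null minus WT, edgeR) with its 95% interval, sorted by size and coloured by the active parental allele. Filled points are the 3 genes called over all genes. Most intervals cross 0, and the lowest values belong to Airn, Kcnq1, Kcnq1ot1 and Meg3.

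How many members are called depends on the test. DESeq2 and limma-voom each called 9 members, adding Igf2, Dlk1, H19 and Mest as higher and Airn and Meg3 as lower, 5 higher and 4 lower in all. DESeq2 called 6.75% of all genes, 4.07% higher and 2.69% lower, and limma-voom 8.57%, 5.22% higher and 3.35% lower. Without both libraries richest in Rn45s edgeR called Grb10, Kcnq1, Kcnq1ot1 and Airn, beside 5.32% of all genes (3.29% higher and 2.03% lower). Kcnq1 and Kcnq1ot1 were no longer called without WT replicate 2, WT replicate 3 or Hnrnpl-null replicate 2. Grb10 was no longer called when any library other than Hnrnpl-null replicate 3 was left out.

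Kcnq1 (chromosome 7, 143107254 to 143427042, mm10, plus strand) encodes a potassium channel and is maternally expressed in the early embryo. In CPM it stood at 10.8, 11.4 and 13.99 in WT libraries 1, 2 and 3, against 6.58, 5.33 and 3.13 in null libraries 1, 2 and 3. All Hnrnpl-null libraries were below all WT libraries. The means were 12.1 ± 1.69 and 5.01 ± 1.75 CPM (SD, n = 3 each), a change of -1.17 ± 0.26 (SE) on the log2 scale with an edgeR adjusted p of 0.022. The lowest value rests on 10 counts, and without that library the log2 fold change was -1.02 (edgeR adjusted p = 0.018). Over the fits that left out 1 library it ran from -1.39 to -1.02.

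Kcnq1ot1 (chromosome 7, 143213111 to 143296547, minus strand) is the long noncoding RNA that is transcribed from the paternal copy, antisense within Kcnq1, and silences genes of the domain. It was at 125, 126 and 177 CPM in WT and 102, 85.3 and 60.0 CPM in null ovaries. The groups did not overlap, with WT replicate 3 highest and Hnrnpl-null replicate 3 lowest. Means were 143 ± 29.6 and 82.3 ± 21.0 CPM (SD, n = 3 each), a change of -0.78 ± 0.18 (SE) on the log2 scale with an edgeR adjusted p of 0.027. Leaving out 1 library gave -0.96 to -0.59. The table counts Kcnq1ot1 over a single stretch of 83437 bases, all of which lies inside the span of Kcnq1 on the other strand. The exons counted for both genes share 121 bases. Whether reads were counted by strand is not stated, so unspliced RNA of Kcnq1 and Kcnq1ot1 cannot be told apart here. Their falls therefore cannot be taken as independent measurements.

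The remaining genes of the Kcnq1 domain were not called. Cdkn1c, which encodes the growth-restraining cell cycle inhibitor p57 and is maternally expressed, was at 176, 156 and 158 CPM in WT and 188, 179 and 241 CPM in null ovaries. Every Hnrnpl-null library was above every WT library, by a narrow margin in replicates 1 and 2, and at 124% of WT (95% interval 102% to 151%) the gene was not called (edgeR adjusted p = 0.22). Slc22a18, a transporter gene, had 2 to 20 counts per WT library and 0 to 48 per Hnrnpl-null library and was not called. Phlda2, which restrains placental growth, had 2 to 6 counts per WT library and 2 to 30 per Hnrnpl-null library and did not pass the filter. Ascl2, a trophoblast transcription factor, had 8 counts in WT replicate 2 and none in the other libraries, where 6 counts per library is the limit a count of 0 allows.

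Airn (chromosome 17, 12741311 to 12859884, plus strand) is the paternally expressed noncoding RNA that runs antisense from within Igf2r, the maternally expressed receptor that clears IGF2. Airn stood at 6.46, 5.85 and 10.1 CPM in WT and 3.84, 3.24 and 1.88 CPM in null ovaries, and the lowest value rests on 6 counts. All Hnrnpl-null libraries were below all WT libraries. At 43.3% of WT (95% interval 26.5% to 70.7%), a change of -1.21 ± 0.33 (SE) on the log2 scale, Airn missed the threshold by edgeR (adjusted p = 0.055). It passed by DESeq2 (adjusted p = 0.026) and limma-voom (adjusted p = 0.043). Igf2r was at 313, 334 and 314 CPM in WT and 312, 313 and 268 CPM in null ovaries. Its groups came apart by under 1 CPM, its ratio was 93.0% of WT (95% interval 77.8% to 111%) and it was not called (edgeR adjusted p = 0.70). Only 5.21% of the exonic bases counted for Airn lie inside the span of Igf2r.

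In the Dlk1-Meg3 domain on chromosome 12, the maternally expressed noncoding RNAs lay in different directions, and none passed the edgeR threshold. Meg3 (109540996 to 109571729, plus strand), a growth-restraining noncoding RNA, was at 243, 256 and 217 CPM in WT and 204, 143 and 135 CPM in null ovaries. The groups did not overlap. Means were 238 ± 19.8 and 161 ± 37.8 CPM (SD, n = 3 each), a change of -0.56 ± 0.15 (SE) on the log2 scale, just short of the threshold by edgeR (adjusted p = 0.055). DESeq2 gave an adjusted p of 0.0012. Without Hnrnpl-null replicate 1 the log2 fold change was -0.78 (edgeR adjusted p = 0.0094), and leaving out any other library gave -0.62 to -0.45, with no call. Rian, which lies downstream on the same strand and hosts small nucleolar RNAs, was at 123, 127 and 117 CPM in WT and 153, 146 and 131 CPM in null ovaries. Here every Hnrnpl-null library was above WT, at 117% (95% interval 99.4% to 138%), with no call (edgeR adjusted p = 0.29). Mirg, a host of microRNAs farther downstream, averaged 7.41 ± 1.15 CPM in WT against 6.82 ± 1.69 CPM in null ovaries, and its groups overlapped.

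The paternally expressed genes of the same domain are Dlk1 and Rtl1. Dlk1 (109452823 to 109463336), a membrane protein of fetal progenitors, was at 245, 248 and 208 CPM in WT and 271, 309 and 341 CPM in null ovaries. All Hnrnpl-null libraries were above WT, at 131% (95% interval 108% to 159%), with no call by edgeR (adjusted p = 0.11) and a call by DESeq2 (adjusted p = 0.0096). Rtl1, a gene derived from a retrotransposon and needed in the placenta, was at 97.2% of WT with overlapping groups. Other genes' exons cover 27.0% of the bases counted for Rtl1, antisense microRNA genes among them.

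Promoters of the members with the smallest adjusted p outside Kcnq1 are shown to place them, as the 250 bases before the outermost start in the RefSeq promoter table of GRCm38.p6 (mm10). Capitals mark CpG, the dinucleotide that carries imprints. Methylation was not measured here.
Kcnq1ot1, chr7:143296548-143296797, minus strand: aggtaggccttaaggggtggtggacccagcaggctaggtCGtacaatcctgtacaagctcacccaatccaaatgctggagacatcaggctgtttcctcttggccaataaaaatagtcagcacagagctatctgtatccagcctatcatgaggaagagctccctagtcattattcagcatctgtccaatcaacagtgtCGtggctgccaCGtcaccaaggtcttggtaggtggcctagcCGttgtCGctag
Airn, chr17:12741061-12741310, plus strand: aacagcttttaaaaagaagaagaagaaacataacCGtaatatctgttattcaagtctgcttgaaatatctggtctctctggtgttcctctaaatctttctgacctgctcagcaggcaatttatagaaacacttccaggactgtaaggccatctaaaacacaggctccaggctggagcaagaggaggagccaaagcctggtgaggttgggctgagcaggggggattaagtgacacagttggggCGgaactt
Meg3, chr12:109540746-109540995, plus strand: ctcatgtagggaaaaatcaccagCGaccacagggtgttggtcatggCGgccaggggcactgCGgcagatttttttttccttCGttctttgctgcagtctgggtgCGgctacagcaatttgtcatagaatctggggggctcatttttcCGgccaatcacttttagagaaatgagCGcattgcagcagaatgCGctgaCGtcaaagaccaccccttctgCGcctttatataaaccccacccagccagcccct
Grb10, chr11:12037421-12037670, minus strand: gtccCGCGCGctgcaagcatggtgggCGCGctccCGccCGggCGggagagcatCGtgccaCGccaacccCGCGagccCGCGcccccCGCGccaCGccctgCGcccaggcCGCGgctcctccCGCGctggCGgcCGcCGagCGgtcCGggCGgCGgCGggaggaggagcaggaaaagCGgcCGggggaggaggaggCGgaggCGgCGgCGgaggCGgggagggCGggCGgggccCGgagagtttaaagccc
The Grb10 stretch holds 40 CpG and 81.2% G and C, against 10 CpG upstream of Meg3, 5 upstream of Kcnq1ot1 and 2 upstream of Airn. Of the 34 members, 27 had an entry in that table, with 44 promoters of 300 bases. Their median ratio of observed to expected CpG was 0.587, against 0.384 over all 32851 promoters. The letters TGCCGC, bound by the imprint-keeping factor ZFP57 when methylated, were found on either strand in 10 of the 44 (22.7%) and in 11.6% of all promoters. Genes with a match were Grb10, Igf2, Meg3, Mest (in 2 overlapping promoters), Nnat, Plagl1, Snrpn, Zdbf2 and Zim1. A link between these letters and the changes in level was not tested. The YY1 letters GCCATNTT were found in 2 of the 44 (4.55%) and in 6.05% of all.

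Grb10 (chromosome 11, 11930499 to 12037420, minus strand) encodes an adaptor that restrains insulin and IGF signalling, and is maternally expressed outside the nervous system. It was at 206, 207 and 222 CPM in WT and 284, 317 and 292 CPM in null ovaries. Every Hnrnpl-null library exceeded every WT library by more than the spread within either group. Means were 212 ± 8.60 and 298 ± 16.8 CPM (SD, n = 3 each), a ratio of 141% (95% interval 119% to 166%), a change of 0.49 ± 0.11 (SE) on the log2 scale with an edgeR adjusted p of 0.026. Leaving out 1 library gave 0.45 to 0.53, with an edgeR adjusted p of 0.054 to 0.12 wherever the call was lost.

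Igf2, H19 and Mest lay higher in every Hnrnpl-null library than in any WT library, and none of them passed the edgeR threshold. Igf2 (chromosome 7, 142650768 to 142666816, minus strand), the paternally expressed fetal growth factor, was at 1042, 1125 and 1017 CPM in WT and 1413, 1454 and 1429 CPM in null ovaries. All Hnrnpl-null libraries were above WT, at 135% (95% interval 111% to 164%). The edgeR adjusted p was 0.084, that of DESeq2 was 9.3e-07 and that of limma-voom was 1.1e-04. H19 (142575530 to 142578146, minus strand), the maternally expressed noncoding RNA of the same domain, was at 1720, 1650 and 1382 CPM in WT and 1751, 1962 and 2320 CPM in null ovaries. Its groups just failed to overlap, and at 127% (95% interval 101% to 160%) it was not called (edgeR adjusted p = 0.25). Mest (chromosome 6, 30733506 to 30748466, plus strand), a paternally expressed mesodermal gene, was at 176, 175 and 178 CPM in WT and 241, 208 and 219 CPM in null ovaries. The groups were apart, at 126% (95% interval 107% to 149%, edgeR adjusted p = 0.12). Exons of Copg2 cover 32.9% of the bases counted for Mest.

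**Figure D2:**
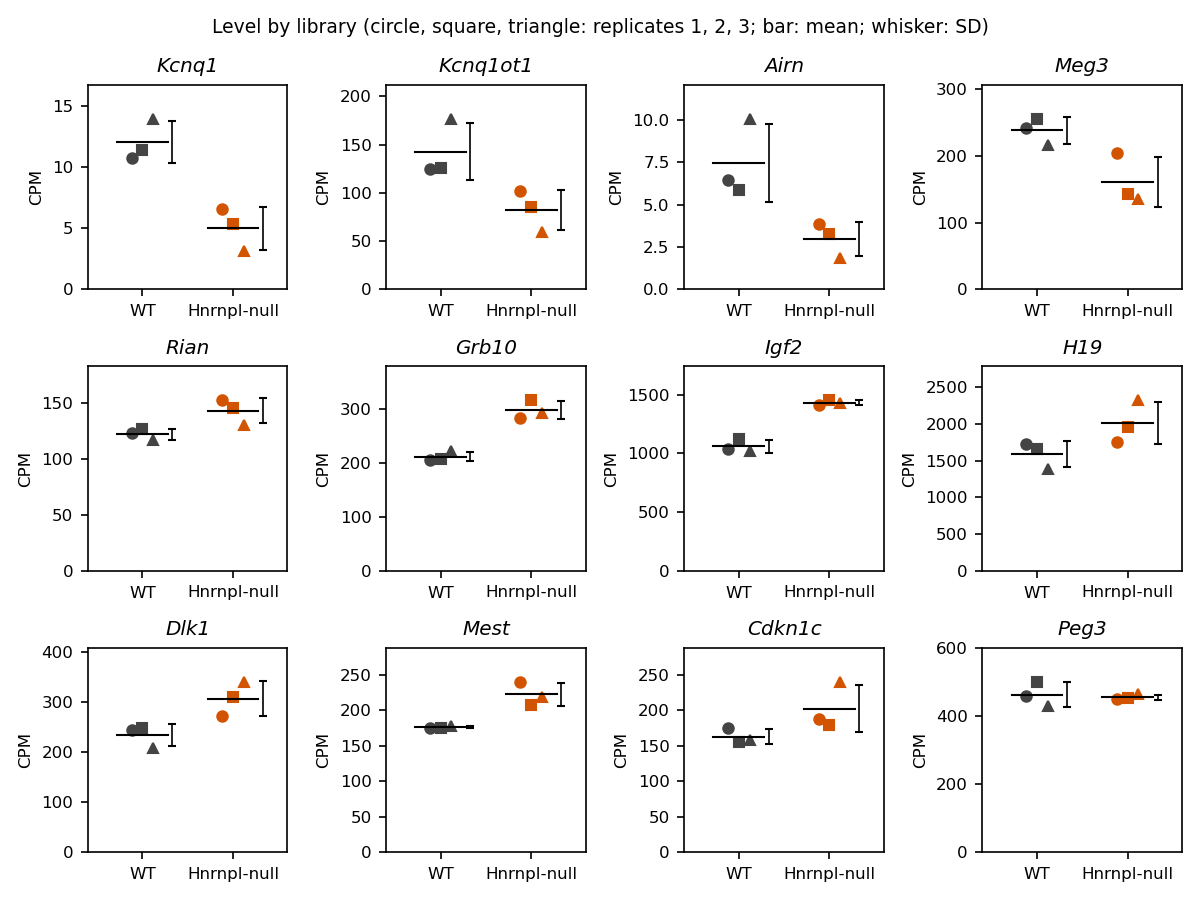
Level in CPM (y axis from 0) of 12 imprinted genes in each library, with WT in grey and Hnrnpl-null in orange, the mean as a bar and the SD as a whisker. Kcnq1, Kcnq1ot1, Airn and Meg3 lie lower in null ovaries, Grb10 and Igf2 lie higher, and Peg3 overlaps.

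Stromal and other markers differed between the same groups. The 8 stromal markers summed to 8942 to 10370 CPM in null ovaries, above the 6040 to 6565 CPM of WT, and 3 of the 8 (Col1a1, Col1a2 and Col3a1) rose, while Pdgfra, Tcf21 and Nr2f2 had overlapping groups. Surface epithelium markers summed to 306 to 377 CPM against 221 to 267 CPM, with 3 of 4 called higher. Calls over all tested genes were 2.67% higher and 1.79% lower. All 7 myeloid markers rose, from a sum of 20.8 to 22.4 CPM in WT to 579 to 748 CPM. All 12 germ cell markers fell, from 559.0 to 629 CPM to 207 to 248 CPM. Markers of pregranulosa cells summed to 665 to 724 CPM in WT and 700 to 775 CPM in null ovaries. Of these 10, only Kitl was called, at 222% of WT, and 6 had a negative log2 fold change. Endothelial markers summed to 143 to 177 CPM in WT, a range that also held the null libraries. None of the 6 was called by edgeR, and 3 had an unadjusted p below 0.05, 1 higher and 2 lower, beside 9.97% and 8.53% of all genes. Kdr, the most abundant, was at 127% of WT, while the other 5 had a negative log2 fold change. Erythroid markers summed to 20.95 to 35.98 CPM in WT and 28.75 to 72.97 CPM in null ovaries. Smooth muscle markers summed to 73.18 to 84.82 CPM in WT and 59.32 to 75.62 CPM in null ovaries. No gene of either list was called. The part of these cell types, or of steroidogenic cells, in the levels of Kcnq1, Kcnq1ot1, Airn, Meg3, Igf2, H19, Dlk1, Mest and Grb10, or in those of Kdm1b, Slc22a3, Dcn, Pde4d and Hmga2 given further on, was not tested. Adrenal and steroidogenic markers (5 genes) summed to 39.9 to 47.1 CPM in WT and 51.2 to 77.6 CPM in null ovaries, and 1 of the 3 tested, Cyp11a1, the enzyme that starts steroid synthesis, rose to 393% of WT (edgeR adjusted p = 0.0038). The 6 hepatocyte markers summed to 0.415 to 1.32 CPM in WT and 0.422 to 0.625 CPM in null ovaries, with Alb at 0 in all libraries.

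Summed over each class, imprinted genes were not lower in null ovaries. Paternally expressed members summed to 2709, 2866 and 2668 CPM in WT and 3174, 3198 and 3155 CPM in null ovaries. Maternally expressed members summed to 2897, 2829 and 2521 CPM and 3004, 3158 and 3482 CPM. Both sums were higher in every Hnrnpl-null library, but H19 and Igf2 made up 42.7% to 51.9% of all member counts. Without those, the members of both classes and Gnas together summed to 3217 to 3414 CPM in WT and 3419 to 3497 CPM in null ovaries. The lowest null library lay just above the highest WT library, and this pooled sum does not show either class alone. Of 18 tested paternally expressed members 1 was called, lower, and their median log2 fold change was -0.01, the same as over all genes. Of 12 tested maternally expressed members 1 was higher and 1 lower, with a median of 0.15. The lower calls are Kcnq1ot1 and Kcnq1, whose falls cannot be taken as independent measurements. Among all tested genes, 2.67% were called higher and 1.79% lower. Fits with 1 library left out moved the medians between -0.03 and 0.07 and between 0.05 and 0.25. These medians are descriptions, and the difference between the classes was not tested.

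**Figure D3:**
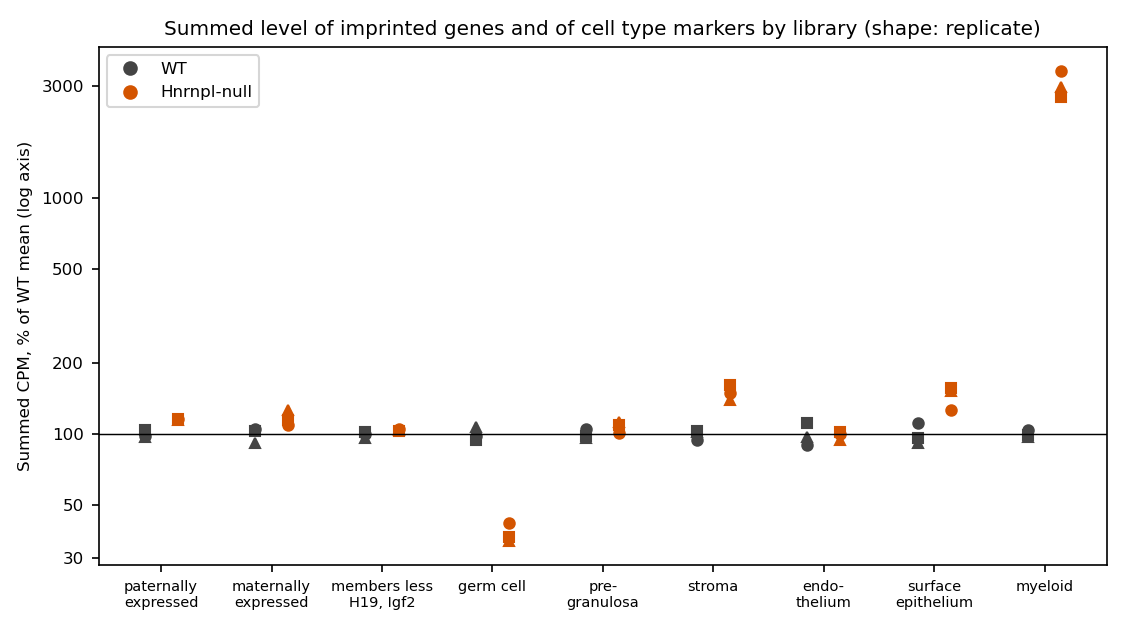
Summed CPM of imprinted genes and of cell type markers in each library, as a percent of the WT mean on a log axis, with WT in grey and Hnrnpl-null in orange. In the Hnrnpl-null libraries paternally expressed genes lie between 114.8% and 116.4% and maternally expressed genes between 109.3% and 126.7%, germ cell markers fall to between 35.1% and 42.2%, and stromal and myeloid markers lie above. Most of the stromal sum is Col1a1, Col1a2 and Col3a1.

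No gene of the other domains was called. Peg3 (chromosome 7, 6705960 to 6730419), a paternally expressed zinc finger gene of growth and maternal behaviour, was at 460.0, 502 and 430.2 CPM in WT and 451, 452 and 465 CPM in null ovaries, with overlapping groups and a ratio of 98.3% (95% interval 81.6% to 119%). Usp29, a deubiquitinase gene that shares the Peg3 promoter region, was at 90.1% of WT and Zim1, a maternally expressed zinc finger gene beside it, at 87.8%, both with overlapping groups. Peg10, a gene derived from a retrotransposon and needed in the placenta, was at 293.5 ± 21.8 and 292.8 ± 22.3 CPM (SD, n = 3 each), or 99.8% of WT (95% interval 83.4% to 119.5%). Its neighbours Sgce, a sarcoglycan, and Asb4, an ankyrin-repeat protein gene, were at 128% and 164% of WT with intervals that include 100%.

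In the Snrpn domain, Ndn and Magel2, paternally expressed genes lost in Prader-Willi syndrome, were at 101% and 95.2% of WT. Peg12 was at 78.8% of WT (95% interval 49.5% to 126%) and Ube3a, a ubiquitin ligase imprinted in neurons, at 105%. All 4 had overlapping groups. Snrpn, a spliceosomal protein gene, is listed with 10 counts in WT replicate 3, 2 in Hnrnpl-null replicate 2 and 0 elsewhere. Exons of Snurf and Snhg14 cover 72.3% of the bases counted for it, and Snurf itself is listed at 0 in every library. How reads in the shared bases were assigned is not stated.

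Grb10 aside, the members that stand alone outside these domains were not called. Gnas, which encodes the G protein alpha subunit among other products, was at 108% of WT. Plagl1, a zinc finger regulator of other imprinted genes, was at 114%, Nnat, a membrane proteolipid gene, at 108% and Impact, a regulator of the GCN2 stress kinase, at 93.6%, and the groups of these 4 overlapped. Slc38a4, an amino acid transporter gene, was at 121% of WT with overlapping groups (edgeR adjusted p = 0.25). Zdbf2, a paternally expressed zinc finger gene, was at 84.1, 70.6 and 83.9 CPM in WT and 69.1, 64.6 and 68.1 CPM in null ovaries. Its groups came apart by a narrow margin, and it was not called (edgeR adjusted p = 0.28).

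Levels set per length of exon show which imprinted genes dominate this tissue. H19 led at 692 CPM per kilobase in WT, followed by Igf2 at 234, Cdkn1c at 84.0, Peg3 at 70.1 and Mest at 63.5 CPM per kilobase. From H19 down to Gnas, at 58.0 CPM per kilobase, the WT libraries of each gene lay above those of the next in order. The neighbours Dlk1, Peg10 and Grb10, at 48.5, 44.0 and 40.5 CPM per kilobase, overlapped. Kcnq1, Airn and Kcnq1ot1, the lowest in ratio to WT, were also low in level, at 3.98, 3.41 and 1.71 CPM per kilobase. The Kcnq1ot1 value is diluted over its long counted stretch.

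**Figure D4:**
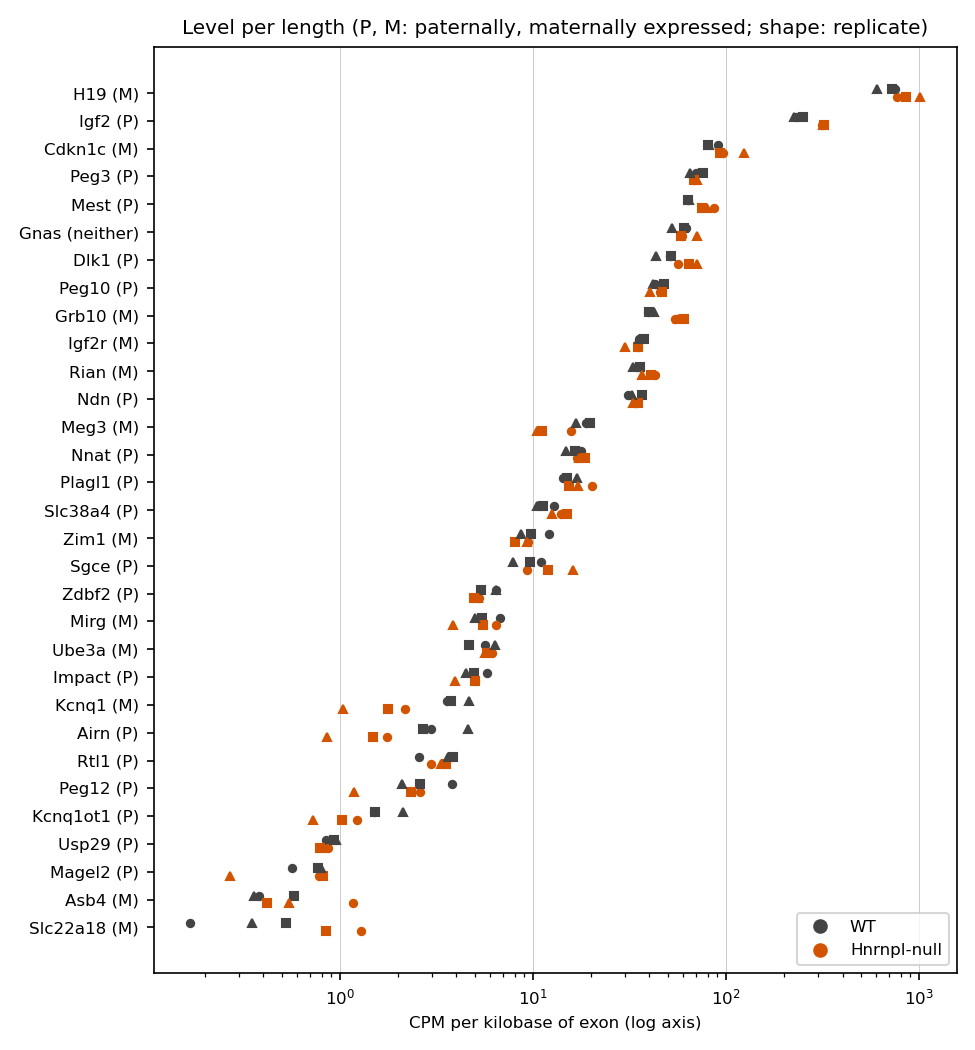
Level per length of the 31 tested members (x axis, CPM per kilobase of exon, log axis) in each WT (grey) and Hnrnpl-null (orange) library, ordered by the WT mean, with P and M for paternally and maternally expressed genes. H19 and Igf2 stand above the rest, and Slc22a18 in Hnrnpl-null replicate 3, at 0, is not drawn.

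Ratios of 2 genes within a library do not depend on how libraries are scaled. For 6 pairs from imprinted domains the log2 ratio of counts per kilobase was compared by an exact two-sided permutation test, where 3 against 3 libraries cannot go below p = 0.10. Meg3 to Dlk1 was -1.44, -1.38 and -1.37 in WT and -1.84, -2.54 and -2.76 in null ovaries. Igf2r to Airn was 3.57, 3.81 and 2.93 in WT and 4.32, 4.57 and 5.13 in null ovaries. Kcnq1 to Kcnq1ot1 was 1.25, 1.32 and 1.12 in WT and 0.83, 0.78 and 0.52 in null ovaries, with the limit on telling these transcripts apart given above. In these 3 pairs the groups did not overlap, each with the smallest p possible (exact permutation p = 0.10, adjusted p = 0.20 over 6 pairs). H19 to Igf2 was 1.56 ± 0.14 in WT and 1.46 ± 0.20 in null ovaries (SD, n = 3 each), with overlapping groups (exact permutation p = 0.50). Cdkn1c to Igf2 and Zim1 to Peg3 also overlapped, with differences of -0.13 and -0.16. A further ratio, chosen after its values were seen and not tested, is Meg3 to Rian on the same strand: it was -0.88, -0.85 and -0.97 in WT and -1.44, -1.89 and -1.81 in null ovaries.

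**Figure D5:**
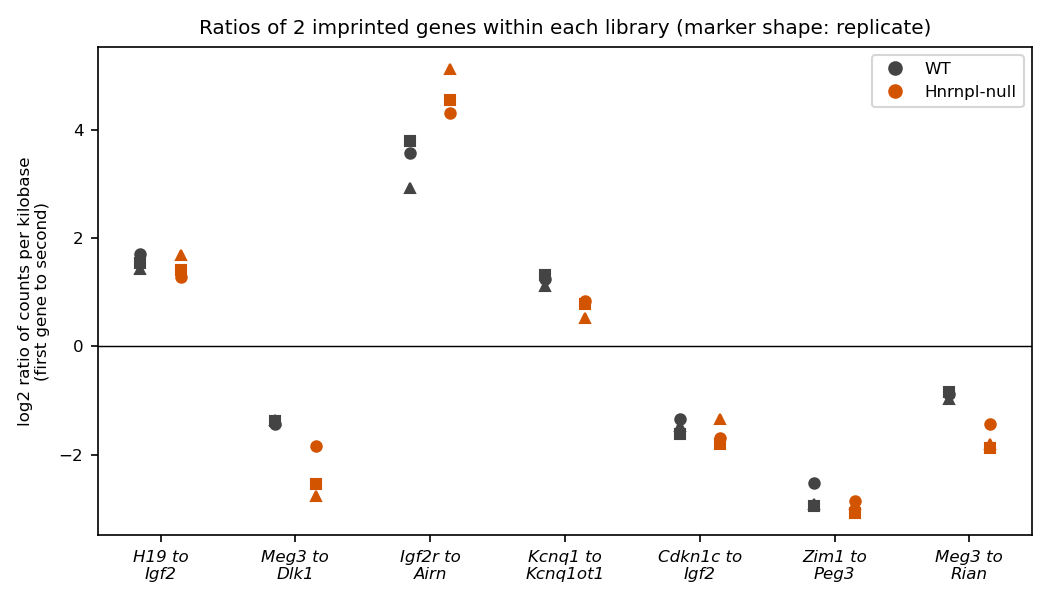
Log2 ratio of counts per kilobase of 2 imprinted genes (y axis) within each library, for 6 pairs and for Meg3 to Rian, with WT in grey and Hnrnpl-null in orange. Groups are apart for Meg3 to Dlk1, Igf2r to Airn, Kcnq1 to Kcnq1ot1 and Meg3 to Rian, and overlap for the others.

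Among 57 further genes reported as imprinted in some tissue, 52 were in the table and 41 were tested. Of these, 3 rose, 0 fell and 38 were not called (median log2 fold change 0.12), beside 2.67% called higher and 1.79% lower of all tested genes. An unadjusted p below 0.05 was reached by 11 of the 41, 9 higher and 2 lower, beside 9.97% and 8.53% of all genes. Slc22a3, an organic cation transporter gene that Airn silences in the placenta, was at 0.790, 0.746 and 1.10 CPM in WT and 5.57, 3.73 and 5.63 CPM in null ovaries. All Hnrnpl-null libraries were above WT, with 98 to 132 counts in the 2 deeper ones, 18 in replicate 3 and 6 to 18 in WT. The log2 fold change was 2.47 ± 0.44 (SE, edgeR adjusted p = 0.0062), and 2.35 without Hnrnpl-null replicate 1 (edgeR adjusted p = 0.055). Dcn, a matrix proteoglycan of stroma, rose from 75.9 ± 13.0 to 114 ± 16.3 CPM (SD, n = 3 each, edgeR adjusted p = 0.037), a call that only leaving out WT replicate 1 kept among the fits with 1 library fewer (edgeR adjusted p of 0.060 to 0.18). Pde4d, a cyclic AMP phosphodiesterase, rose from 11.6 ± 2.62 to 20.3 ± 3.53 CPM (edgeR adjusted p = 0.048), with no call without any 1 library.

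Of 17 factors that set or keep imprints, 15 were tested and 1 was called, lower, beside 1.79% of all tested genes. Kdm1b, the histone demethylase that oocytes need to set maternal imprints, was at 62.7, 63.0 and 69.95 CPM in WT and 18.4, 12.2 and 20.6 CPM in null ovaries. It fell to 25.4% of WT (95% interval 19.6% to 32.8%), a change of -1.98 ± 0.17 (SE) on the log2 scale with an edgeR adjusted p of 1.5e-05, in the samples where all 12 germ cell markers fell. Dnmt3l, a cofactor of methylation in growing oocytes, had no counts in any library. Zfp57 and Hells, a zinc finger factor and a chromatin remodeller that keep methylation, were at 77.3% and 71.1% of WT with groups that did not overlap, and were not called (edgeR adjusted p = 0.22 and 0.090). Trim28, at 228 CPM in WT and 262 CPM in null ovaries, lay higher in every Hnrnpl-null library than in any WT library and was not called (edgeR adjusted p = 0.36). Of the 15 tested factors, 1 lay higher and 3 lower in this way, beside 12.4% and 13.2% of all genes. Dnmt1, Uhrf1, Dnmt3a and Ctcf were at 79.7, 56.4, 168 and 38.2 CPM in WT and 90.8, 56.2, 176 and 39.2 CPM in null ovaries. These 4 had overlapping groups and were not called.

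Of 17 tested genes in a list around IGF signalling, 1 rose and 16 were not called, beside 2.67% called higher and 1.79% lower of all tested genes. The 1 that rose is neither a receptor nor a binding protein of IGF2. An unadjusted p below 0.05 was reached by 7, 6 higher and 1 lower, beside 9.97% and 8.53% of all genes. Hmga2, a chromatin factor of fetal growth that acts on Igf2bp2, rose from 8.55 ± 0.89 to 15.9 ± 1.84 CPM (SD, n = 3 each), a change of 0.90 ± 0.20 (SE) on the log2 scale with an edgeR adjusted p of 0.020, and was not called without WT replicate 2, WT replicate 3 or Hnrnpl-null replicate 2. Neither Igf2bp2 itself, at 50.5 CPM in WT and 41.6 in null ovaries, nor Igf1r, the receptor for IGF2, at 172 and 164 CPM, was called. Igfbp5, the most abundant IGF-binding protein of the list, was at 1748, 1679 and 1742 CPM in WT and 2031, 2386 and 2264 CPM in null ovaries, with separate groups and an edgeR adjusted p of 0.15.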

How the data were processed

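Gene counts, not normalized, were deposited by the authors as a single table with a column for each library, laid out like featureCounts output per the file headers. Tools named in the submitters' processing notes are featureCounts 2.0.6, STAR 2.7.11a and HISAT2 2.2.1, with mm10 as the build. Their roles, the strand setting and the handling of reads in overlapping genes are not given in these sources. Members were found by symbol, and they and the gene lists were chosen with earlier results of these data known.

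All 6 libraries entered an edgeR 4.0.16 quasi-likelihood fit (R 4.3.3) with genotype as the only term, after filterByExpr and TMM scaling (glmQLFit, then glmQLFTest, two-sided), with Benjamini-Hochberg adjustment over 14849 genes and calls below 0.05. CPM uses the TMM-scaled library size, and CPM per kilobase divides it by the exonic length in the table. Standard errors come from the F statistic. Members called, or with separate groups and an unadjusted p below 0.05, are given per library, as are 8 fixed members. Up to 3 called genes are named from each further list, and other named genes were chosen after their values were seen. Pair ratios were tested by exact permutation (scipy 1.17.1). Alternatives were DESeq2 1.42.0, limma 3.58.1 voom, other scalings and filters, halved counts, the replicate block and libraries left out.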

Additional observations from a re-analysis of the deposited data

How the results depend on the processing

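Directions of the 11 members run under each alternative (Airn, Cdkn1c, Dlk1, Grb10, H19, Igf2, Kcnq1, Kcnq1ot1, Meg3, Mest and Peg3) were kept in all 17, other than Peg3, which is at -0.02 on the log2 scale, ran from -0.068 to 0.034 with 1 library left out and was 0.034 without WT replicate 2. The adjusted p over the alternatives ran from 3e-06 to 1 for Grb10, from 0.0013 to 1 for Kcnq1 and from 4.1e-05 to 1 for Kcnq1ot1, the highest from library totals alone, which leave the Rn45s share unscaled and call 4 genes in all. Members called higher (1) numbered 5 by DESeq2 and by limma-voom, 2 without the filter on low counts or without the Rn45s row, 0 with totals alone and 0 with the replicate block, and 0 to 1 with 1 library left out. Members called lower (2) numbered 4 by DESeq2, limma-voom, without the filter and on halved counts, 0 with totals alone, and 0 to 3 with 1 library left out. All genes called (663) numbered 1071 by DESeq2, 1273 by limma-voom, 1104 without the filter and 249 to 853 with 1 library left out. Further imprinted genes called (3) numbered 0 with totals alone and 0 to 2 with 1 library left out. Imprint control factors called (1) numbered 0 with totals alone. Genes of the IGF signalling list called (1) numbered 2 by DESeq2, 3 by limma-voom, 2 without the filter, 2 without both libraries richest in Rn45s, 0 with totals alone and 0 to 2 with 1 library left out. The paternal median (-0.01) was 0.056 without both libraries richest in Rn45s and -0.031 to 0.068 with 1 library left out. The maternal median (0.15) was 0.074 with a mean of at least 1 CPM, 0.24 without the Rn45s row and 0.050 to 0.25 with 1 library left out. Beyond the alternatives' own construction, the cause was not tested. Same-numbered libraries deviated with correlations of -0.12, 0.09 and -0.09, and differently numbered ones with -0.11 to 0.15. With 3 libraries per group these values cannot settle whether the numbers pair the samples. The replicate block called 444 genes, ended the Grb10 call (edgeR adjusted p = 0.058) and called Meg3 (edgeR adjusted p = 0.044). Some members had few counts: Ascl2, Snrpn and Phlda2 did not pass the filter, and Slc22a18, Asb4, Magel2, Airn, Kcnq1 and Peg12 had 0 to 10 counts in Hnrnpl-null replicate 3, the shallowest. For Snrpn, how reads in the bases shared with Snurf and Snhg14 were assigned is not stated.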

Other observations

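Other long noncoding RNAs, chosen after their values were seen, give a setting for Kcnq1ot1, Airn and Meg3. Neat1, the nuclear RNA that builds paraspeckles, was at 37.7, 99.5 and 94.3 CPM in WT and 25.6, 30.2 and 21.2 CPM in null ovaries. Its groups did not overlap, with WT replicate 1 closest to Hnrnpl-null, and the log2 fold change was -1.57 ± 0.27 (SE, edgeR adjusted p = 0.0053). Malat1, a nuclear RNA of speckles, averaged 4065 ± 293 CPM in WT against 3862 ± 758 in null ovaries (SD, n = 3 each), with no call. Xist, the RNA of X inactivation, averaged 710 ± 101 and 579 ± 166 CPM, with no call (edgeR adjusted p = 0.47).

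Among the 41 tested genes of the further imprinted list, 10 lay higher and 5 lower in all Hnrnpl-null libraries than in all WT libraries, beside 12.4% and 13.2% of all genes, and 3 of the 10 were called. The 3 genes that follow were not called and were chosen after their values were seen. Dio3, a deiodinase gene at the far end of the Dlk1-Meg3 domain, was at 2.24, 3.32 and 3.45 CPM in WT and 4.81, 5.03 and 6.88 CPM in null ovaries (edgeR adjusted p = 0.21). Tspan32, a tetraspanin gene of blood cells in the Kcnq1 domain, was at 4.74, 2.61 and 2.07 CPM in WT and 5.31, 5.18 and 6.88 CPM in null ovaries (edgeR adjusted p = 0.21). All 7 myeloid markers also rose there, and the part of blood cells in the level of Tspan32 was not tested. Nap1l4, a nucleosome assembly gene beside the Kcnq1 domain, was at 68.9, 62.7 and 57.4 CPM in WT and 51.8, 54.4 and 51.2 CPM in null ovaries (edgeR adjusted p = 0.25).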
